A study of Mus musculus with 16 samples.

Results

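The effect of the BACHD genotype on striatal RNA was measured over both viruses of a study that crossed genotype with virus. All 16 libraries entered, and 8 BACHD mice were compared with 8 control mice in a model that also held a term for the injected virus. Of 24421 listed genes, 13563 had enough reads to be tested. The 4 groups of 4 mice each carry the genotype and then the virus in their names. Con+Con were control mice given a control virus, Con+Foxp2 were control mice given a virus that delivers Foxp2, BACHD+Con were BACHD mice given the control virus, and BACHD+Foxp2 were BACHD mice given the Foxp2 virus. All mice had been injected with a virus, and all striata were taken at 13 months of age, so no group was uninjected or young. The libraries held 2660395 to 3669748 reads assigned to genes, and no library was a copy of another, since even the most alike of the 120 pairs differed beyond counting error. The design text gives 4 mice per group, and each library is treated as 1 mouse. The sources used here do not state strain, sex, the kind of virus or the time from injection to harvest.

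In BACHD mice a bacterial artificial chromosome adds the whole human huntingtin gene, in a mutant form with an expanded glutamine repeat, beside their own pair of mouse Htt genes. They are used as a model of Huntington disease, in which the projection neurons of the striatum degenerate. Transcripts that define those neurons, such as dopamine receptor, enkephalin and phosphodiesterase transcripts, are known to fall in the disease and in many of its mouse models. Because the transgene is present from conception, development with it and its presence at harvest cannot be told apart here.

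The mouse counterpart of the transgene was examined first, since it checks the labels. Mouse Htt lies on chromosome 5 (34761740 to 34912534, plus strand, GENCODE M21 on GRCm38) and encodes huntingtin, a large scaffold protein of vesicle transport and autophagy. The start of its coding sequence (chr5:34761907-34762026, plus strand) is shown because it holds the glutamine run, given in capitals, that is expanded in the human transgene.
Htt coding start: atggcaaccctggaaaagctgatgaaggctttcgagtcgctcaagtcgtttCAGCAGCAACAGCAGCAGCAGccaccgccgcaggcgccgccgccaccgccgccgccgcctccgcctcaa
The mouse run is 7 codons long, 6 CAG and 1 CAA, and spans codons 18 to 24 with the start codon as codon 1. The counts are per mouse gene, so reads of the human transgene that aligned to mouse Htt cannot be told apart from reads of the mouse gene itself.

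The second gene that differed, Msantd1, a gene of little-known function whose protein has a Myb/SANT-like DNA-binding domain, is the next gene downstream on the same strand (34908012 to 34923839). In GENCODE M21 the annotated ends of Htt and Msantd1 overlap by 4523 bases. In the RefSeq table Msantd1 runs from 34914593 to 34926989 and is separated from the end of Htt by 2058 bases. The sources used here do not state whether read counting used strand or how it treated this overlap. As for Htt, any reads of the human insert that aligned to Msantd1 cannot be told apart from reads of the mouse gene. The 250 bases before each start site in the RefSeq promoter table (GRCm38.p6) are shown because both genes were called. The start used there for Msantd1 lies inside the RefSeq span of the gene. Matches to GGGCGG or its reverse complement CCGCCC are in capitals.
Htt promoter, chr5:34761490-34761739: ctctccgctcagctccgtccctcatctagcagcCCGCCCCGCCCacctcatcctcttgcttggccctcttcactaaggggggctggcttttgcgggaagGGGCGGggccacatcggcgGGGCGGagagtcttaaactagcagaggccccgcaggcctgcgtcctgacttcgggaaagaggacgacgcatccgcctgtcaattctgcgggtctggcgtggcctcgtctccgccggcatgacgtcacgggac
Msantd1 promoter, chr5:34915665-34915914: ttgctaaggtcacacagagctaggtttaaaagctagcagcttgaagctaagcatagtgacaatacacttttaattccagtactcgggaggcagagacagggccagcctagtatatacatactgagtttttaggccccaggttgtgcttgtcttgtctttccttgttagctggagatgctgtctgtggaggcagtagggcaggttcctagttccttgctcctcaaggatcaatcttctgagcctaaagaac
The Htt window held 4 matches to this motif, counted on both strands with overlap allowed, 22 CpG dinucleotides and a GC content of 66.4%. The Msantd1 window held 0 matches, 1 CpG and a GC content of 46.4%. Among 32851 mouse promoters of the same length, 32.7% held at least 1 match, the median CpG number was 6 and the median GC content was 52.4%.

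Htt was higher in every BACHD mouse than in every control mouse. Its levels in CPM (counts scaled to a common library total by trimmed mean of M values) were 264, 265, 323 and 294 in Con+Con, and 272, 258, 246.0 and 249 in Con+Foxp2. They were 571, 470.4, 767 and 622 in BACHD+Con, and 483, 594, 579 and 555 in BACHD+Foxp2. The lowest BACHD mouse thus lay above the highest control mouse, and the highest of all was BACHD+Con mouse 3. Over both viruses the mean went from 271 ± 25.6 to 580.2 ± 91.8 CPM (SD, n = 8 each). This was 2.14-fold, a log2 fold change of 1.10 (SE 0.084, 95% interval 0.92 to 1.27, adjusted p = 2.5e-08). All such p-values are from edgeR's quasi-likelihood test, adjusted by the Benjamini-Hochberg method across the tested genes. The difference was 1.085 under the control virus (SE 0.12) and 1.11 under the Foxp2 virus (SE 0.12), on the log2 scale.

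Msantd1 was nearly silent in control mice. Its levels were 3.54, 1.93, 3.54 and 1.49 CPM in Con+Con and 7.73, 6.54, 0.0 and 1.37 CPM in Con+Foxp2, from 82 reads in all 8 control mice together. In BACHD+Con they were 21.3, 28.7, 48.7 and 19.7 CPM and in BACHD+Foxp2 21.2, 19.97, 27.9 and 24.6 CPM, from 622 reads. Again no BACHD mouse overlapped a control mouse, and BACHD+Con mouse 3 was the highest for both genes. The means of 3.27 ± 2.67 and 26.5 ± 9.62 CPM differed 8.01-fold (log2 fold change 3.00, SE 0.38, 95% interval 2.21 to 3.79, adjusted p = 0.000282). With the labels permuted within each virus, the exact two-sided p was 0.000408 for either gene, the smallest that 4900 relabellings can give. Of the 54 genes permuted this way Atm, Optn, Mdk, Arl2bp, Rnd2 and Klf13 reached the same smallest p, and edgeR called none of these 6. A gene reaches this p whenever its 4 and 4 mice do not overlap, in the same direction, under both viruses. Msantd1 and these 6 were picked by low p or with their values known, so their permutation p is no separate support.

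**Figure D1:**
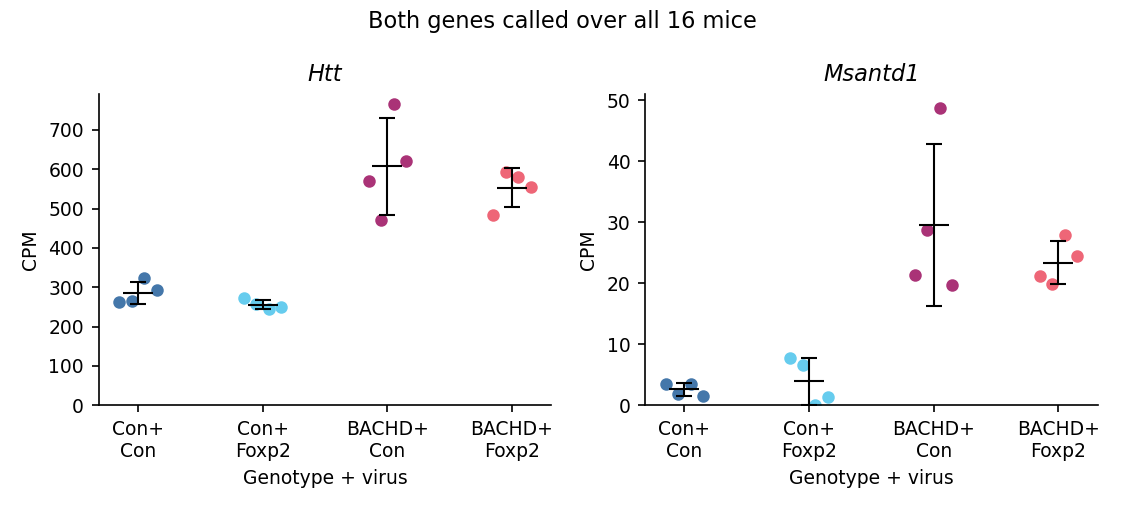
Levels of Htt and Msantd1 (CPM, vertical axes, linear from 0) in the 16 mice by genotype and virus, with 1 point per mouse and bars for the mean ± SD of 4 mice. All 8 BACHD mice lie above all 8 control mice for both genes, and the Msantd1 level of control mice does not exceed 7.73 CPM.

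No other gene tested near Htt was called. Within 1000 kb of the start of Htt 21 other genes were tested, and 0 of them passed edgeR's test, where 0.0147% of all tested genes did. Their log2 fold changes ran from -0.62 for Htra3, a secreted protease, to 0.56 for Adra2c, an alpha-2 adrenergic receptor, with a median of 0.0018. For 18 of the 21 the 95% interval lay within a 2-fold change in either direction. Grk4, the receptor kinase gene that ends just upstream of Htt, was at 6.33 ± 2.14 CPM in control and 4.15 ± 1.35 CPM in BACHD mice (log2 fold change -0.60, SE 0.33, adjusted p = 0.999). Rgs12, a regulator of G protein signalling and the first tested gene beyond Msantd1, was at 34.2 ± 8.55 and 39.2 ± 16.4 CPM (log2 fold change 0.16, SE 0.20). Adra2c alone of the 21 had an unadjusted p under 0.05 (0.013), at 21.0 ± 7.83 and 30.5 ± 9.06 CPM (adjusted p = 0.999).

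**Figure D2:**
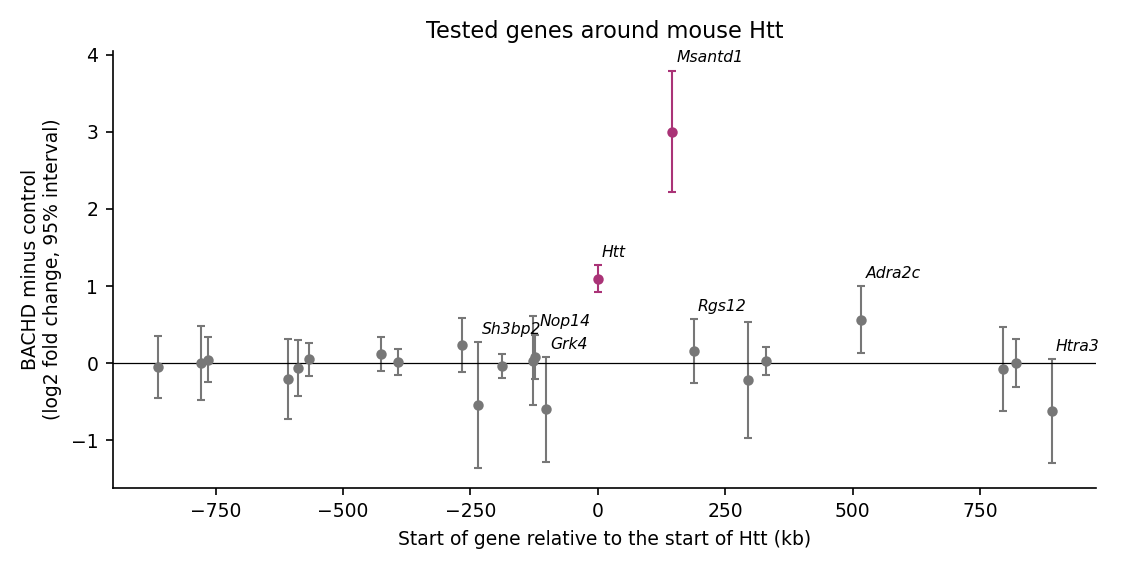
Log2 fold change of BACHD against control mice over both viruses (vertical axis, with 95% intervals) for the 23 tested genes within 1000 kb of mouse Htt, by the distance of their start from the start of Htt in kb. Htt and Msantd1 stand above 0, and the intervals of the other genes include 0 except that of Adra2c.

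Across the striatal transcriptome Htt and Msantd1 were the only genes called by edgeR. They were 2 of 13563 tested genes (0.0147%), both higher, and 0 genes (0%) were lower by edgeR. An unadjusted p under 0.05 was reached by 541 genes (3.99%), of which 260 were higher (1.92%) and 281 lower (2.07%), where 678 would be expected by chance. DESeq2 and limma voom called the same 2 genes as higher and each called 4 genes as lower. Those of DESeq2 included Actn2, Foxf1 and Frmpd1, and limma voom called Col23a1, Foxf1, Foxp2 and Frmpd1. The median log2 fold change over all tested genes was 0.0044, and 51.1% of them were higher in BACHD mice. The 95% interval lay within a 2-fold change for 11051 genes (81.5%) and within a 1.5-fold change for 7794 genes (57.5%).

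**Figure D3:**
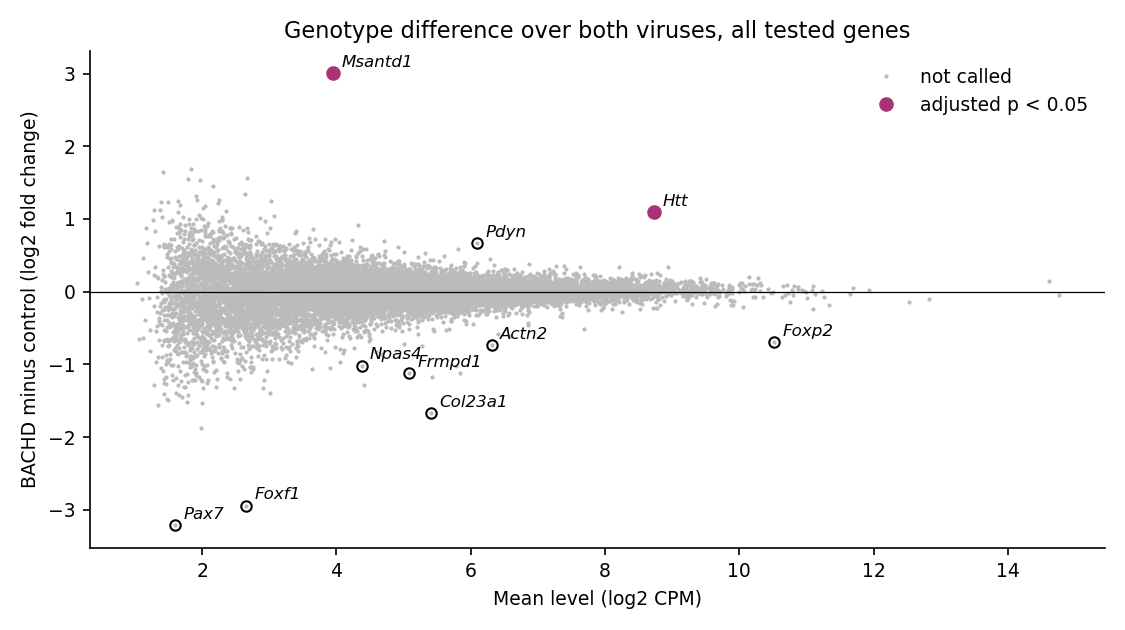
Log2 fold change of BACHD against control mice over both viruses (vertical axis) against mean level (log2 CPM, horizontal axis) for 13563 tested genes. Htt and Msantd1, the filled points, have an adjusted p under 0.05, and the open circles mark genes described in the text that were not called.

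Some genes of low p that were not called had similar differences under both viruses. Actn2, an alpha-actinin of the postsynaptic density of projection neurons, ranged from 64.0 to 175 CPM in control mice with a median of 91.2, and from 45.4 to 76.2 CPM in BACHD mice with a median of 56.3. All 8 BACHD mice lay below the control median, and 5 lay below the lowest control mouse. The means were 99.0 ± 37.6 and 59.0 ± 11.9 CPM (log2 fold change -0.74, SE 0.15, adjusted p = 0.133), with -0.80 under the control virus and -0.67 under the Foxp2 virus. In whole-tissue samples, fewer cells of a type and less RNA per cell cannot be told apart.

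Optn, the autophagy receptor optineurin that binds huntingtin, ranged from 31.5 to 46.3 CPM in control mice (median 37.9) and from 21.4 to 32.2 CPM in BACHD mice (median 26.4). The 4 BACHD mice lay below the 4 control mice under each virus, with means over both of 38.9 ± 4.58 and 27.3 ± 4.30 CPM (log2 fold change -0.52, SE 0.13, adjusted p = 0.515). Atm, the kinase that signals DNA double-strand breaks, was at 63.2 to 86.3 CPM in control mice (median 75.9) and 45.1 to 62.9 CPM in BACHD mice (median 55.3). All 8 BACHD mice lay below the lowest control mouse, yet Atm did not pass the test (log2 fold change -0.45, SE 0.10, adjusted p = 0.389). Npas4, a transcription factor induced by neuronal activity, was at 9.56 to 42.0 CPM in control mice (median 24.4) and 6.94 to 18.3 CPM in BACHD mice (median 14.1). Its groups overlapped, and its log2 fold change was -1.02 (SE 0.26, adjusted p = 0.571).

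Pdyn, which encodes the opioid precursor of dynorphin in direct pathway neurons, had the lowest p among higher genes after Htt and Msantd1. It ranged from 33.5 to 69.7 CPM in control mice (median 50.5) and from 49.8 to 137 CPM in BACHD mice (median 75.3). Of the 8 BACHD mice 5 lay above the highest control mouse, and the log2 fold change was 0.67 (SE 0.17, adjusted p = 0.571). It was 0.68 under the control virus and 0.65 under the Foxp2 virus. Pdyn was called under 1 of 29 alternative settings, the fit with the level of cortical neuron markers as a covariate (adjusted p = 0.0325).

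Rnd2 and Klf13 were also among the higher genes of lowest p. Rnd2, a small GTPase of neurons, was at 12.2 ± 3.71 and 19.3 ± 4.01 CPM (log2 fold change 0.69, adjusted p = 0.984). Klf13, a zinc-finger transcription factor, was at 151 ± 7.30 and 182 ± 20.2 CPM (log2 fold change 0.26, adjusted p = 0.984).

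Groups without any overlap were found for 5 genes (0.0369%) over the 8 and 8 mice. Htt and Msantd1 lay above the control mice (0.0147%), and Atm, Mdk and Arl2bp lay below (0.0221%). Mdk, the heparin-binding growth factor midkine, was at 16.4 ± 2.70 CPM in control and 10.9 ± 1.38 CPM in BACHD animals (log2 fold change -0.58, SE 0.18, adjusted p = 0.999). Arl2bp, a partner of a small GTPase, was at 97.8 ± 5.10 and 81.8 ± 9.19 CPM (log2 fold change -0.26, SE 0.089, adjusted p = 0.999). Requiring only that the 4 BACHD mice be apart from the 4 control mice in the same direction under each virus gave 12 genes (0.0885%), 5 higher and 7 lower.

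The additive model takes the genotype difference to be equal under both viruses, so it was also measured within each virus. Under the control virus Htt and Msantd1 were the 2 genes called (0.0147%), and 466 genes had an unadjusted p under 0.05 (3.44%), 218 of them higher (1.61%) and 248 lower (1.83%). Without Con+Con mouse 1, 2 or 4 or BACHD+Con mouse 3, Htt was the 1 gene called there. Under the Foxp2 virus 8 genes were called (0.059%). Htt was the 1 higher gene (0.00737%), and the 7 lower genes (0.0516%) included Col23a1, Foxp2, Frmpd1, Cdh4, Elfn1 and Pax7. At an unadjusted p under 0.05 there were 567 in this arm (4.18%), 254 higher (1.87%) and 313 lower (2.31%). Msantd1 was 2.58 higher on the log2 scale there and missed the threshold (SE 0.53, adjusted p = 0.0768). Between the viruses its difference did not pass a test (interaction -0.88, SE 0.76, adjusted p = 1.00). No gene passed edgeR's interaction test of genotype and virus (0%). It gave 516 genes at an unadjusted p under 0.05 (3.8%), 237 with a positive term (1.75%) and 279 with a negative one (2.06%), while DESeq2 called Cdh4, Col23a1, Foxp2 and Pax7 and limma voom called 0.

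Foxp2 itself was one of the genes lower in BACHD mice under the Foxp2 virus. Its levels were 3819, 4389, 4350 and 3500 CPM in Con+Foxp2 and 1729, 1291, 1431 and 1929 CPM in BACHD+Foxp2, without overlap (log2 fold change -1.33, SE 0.16, adjusted p = 9.6e-05). Under the control virus the means were 118 ± 26.7 and 119 ± 28.6 CPM (log2 fold change 0.011, SE 0.17). The 8 and 8 mice therefore differed in the level of the delivered gene as well as in genotype. Under the Foxp2 virus the effect of the genotype and that of the lower Foxp2 level cannot be told apart.

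Of the genes ranked just outside the threshold over both viruses, 3 had their larger difference in that arm. Col23a1, a membrane-bound collagen, stood at 127, 124, 155 and 96.6 CPM in Con+Foxp2 and at 23.4, 24.2, 18.2 and 20.1 CPM in BACHD+Foxp2. Under the control virus it was at 10.2 ± 6.76 and 8.42 ± 2.06 CPM, and over both viruses its log2 fold change was -1.67 (SE 0.32, adjusted p = 0.0753). Frmpd1, a scaffold protein of G protein signalling, was at 70.2 ± 8.85 CPM in Con+Foxp2 and 17.9 to 24.0 CPM on average in the other 3 groups (log2 fold change over both viruses -1.12, SE 0.22, adjusted p = 0.0753). Its difference was -1.76 under the Foxp2 virus and -0.41 under the control virus. Foxf1, a forkhead factor of developing mesenchyme, was at 19.1 ± 5.74 CPM in Con+Foxp2 and 1.90 ± 1.47 CPM in BACHD+Foxp2, with at most 2.07 CPM in any mouse given the control virus (log2 fold change over both viruses -2.94, SE 0.56, adjusted p = 0.0753). Foxf1 passed the filter on low counts only through Con+Foxp2, so it had to differ there and its low p is no separate support. The difference between the arms did not pass the interaction test for Col23a1 (adjusted p = 0.362), Frmpd1 (0.809) or Foxf1 (1.00), nor for Foxp2 (0.0770).

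Cdh4, Elfn1 and Pax7, also lower in that arm, likewise had their highest mean in Con+Foxp2. Cdh4, the adhesion molecule R-cadherin, was at 61.3 ± 6.01 CPM in Con+Foxp2 and 21.98 ± 8.55 CPM in BACHD+Foxp2, against 20.3 ± 3.08 and 21.7 ± 6.29 CPM under the control virus. Elfn1, a leucine-rich repeat protein of synapses onto interneurons, was at 70.7 ± 23.8 and 26.8 ± 5.58 CPM under the Foxp2 virus, against 27.7 ± 7.54 and 26.9 ± 3.16 CPM. Pax7, a homeodomain factor of muscle stem cells, was at 8.79 ± 3.47 CPM in Con+Foxp2. It had 0 reads in all Con+Con and BACHD+Foxp2 mice, so its fitted fold changes have no defined size. Pax7 too passed the filter on low counts only through Con+Foxp2, so it had to differ there and its call is no separate support. Left out 1 at a time, the 16 mice gave 4 to 10 called genes in this arm. Col23a1, Foxp2, Frmpd1 and Htt were called each time. Without BACHD+Foxp2 mouse 4 these 4 were the only ones. Elfn1 was also lost without Con+Foxp2 mouse 2 or BACHD+Foxp2 mouse 1, and Pax7 without any 1 of the 8 Foxp2 virus mice or BACHD+Con mouse 3.

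**Figure D4:**
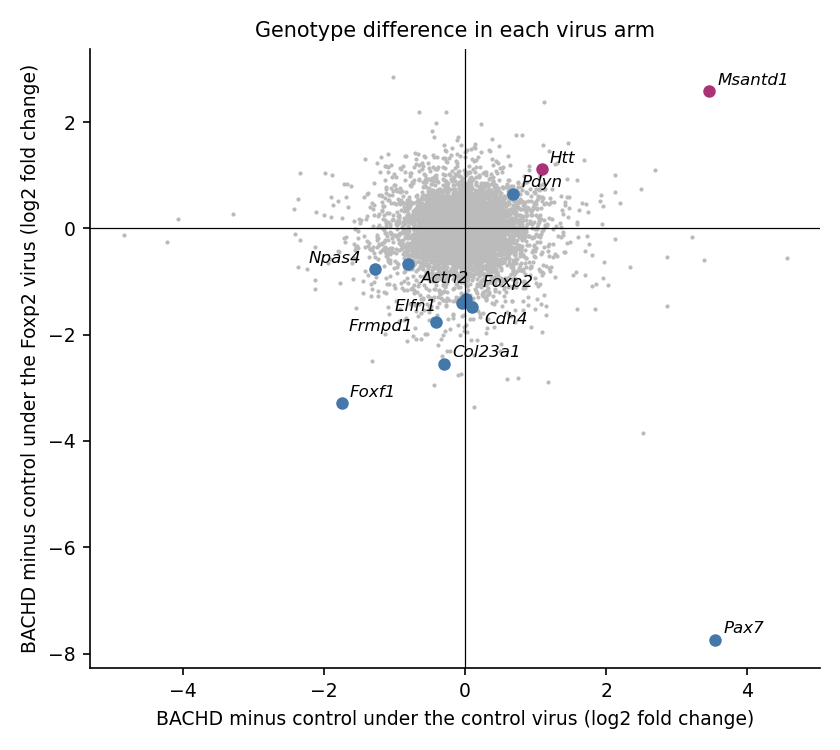
Log2 fold change of BACHD against control mice under the control virus (horizontal axis) and under the Foxp2 virus (vertical axis) for 13563 tested genes. Htt and Msantd1 lie above 0 on both axes, while Col23a1, Frmpd1, Foxp2, Cdh4 and Elfn1 lie below 0 mainly on the vertical axis. The position of Pax7 reflects groups with 0 reads.

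The virus arms share no mice, so each gene had 2 separate measurements of the genotype difference. Across the 13563 genes the log2 fold changes of the arms had a Pearson r of 0.011 and a Spearman rho of 0.033, and 51.2% of genes had the same sign in both. Genes within a library are not independent, and no test was made on these values. Of the 466 genes at an unadjusted p under 0.05 under the control virus, 248 (53.2%) had the same sign under the Foxp2 virus. In both arms 21 genes reached an unadjusted p under 0.05 in the same direction, 8 higher and 13 lower, and 12 did so in opposite directions. Beside Htt and Msantd1, the 21 included Actn2, Optn, Atm, Npas4, Pdyn and Mdk. Also among them were Tcf7l2, a transcription factor of the Wnt pathway (log2 fold change -1.17, SE 0.32, adjusted p = 0.984), and Cdc42bpg, a kinase that acts on the cytoskeleton (-1.05, SE 0.25, adjusted p = 0.390). Con+Con mouse 1 and Con+Foxp2 mouse 2 held the most Tcf7l2, at 102 and 140 CPM, against a control median of 38.1 CPM.

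Of the genes that define striatal projection neurons, edgeR called 0 in these mice. Actn2 was called lower under 4 of 29 alternative settings. These were DESeq2, and edgeR with no low count filter (adjusted p = 0.00513), with the cortical marker level as a covariate, or without Con+Con mouse 3. Drd1, the dopamine receptor of direct pathway neurons, ranged from 79.9 to 214 CPM in control mice (median 103) and from 99.4 to 174 CPM in BACHD mice (median 123), with groups that overlapped fully. Drd2, the receptor of indirect pathway neurons, ranged from 57.3 to 134 CPM (median 84.0) and from 58.9 to 120.2 CPM (median 78.4). The 95% intervals of their log2 fold changes were -0.20 to 0.40 for Drd1 and -0.37 to 0.22 for Drd2. Penk, the enkephalin precursor of indirect pathway neurons, was at 730.4 ± 256 and 790.4 ± 190.2 CPM (95% interval -0.19 to 0.43). Pde10a, the phosphodiesterase abundant in projection neurons, was at 1236 ± 406 and 1168 ± 228 CPM (95% interval -0.33 to 0.19).

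Other members of the striatal panel stayed within similar bounds. Ppp1r1b, which encodes the dopamine-regulated phosphatase inhibitor DARPP-32, had a 95% interval of -0.19 to 0.38, and Scn4b, a sodium channel subunit of these neurons, one of -0.37 to 0.21. Foxp1, the forkhead factor related to Foxp2, had one of -0.15 to 0.27. For the adenosine receptor gene Adora2a of indirect pathway neurons it was -0.43 to 0.44, and for the substance P precursor gene Tac1 of direct pathway neurons -0.0097 to 0.75. Each of these 5 intervals lay within a 2-fold change, and each adjusted p was 0.999.

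Of the 28 genes listed as projection neuron identity genes, all were tested, 21 were higher, 0 were called by edgeR, and the median log2 fold change was 0.077, against 0.0044 over all genes. Actn2 was their lowest member and the 1 that DESeq2 called. Cap2, an actin regulator, was at 174 ± 33.2 and 206 ± 21.4 CPM with all 8 BACHD mice above the control median (log2 fold change 0.24, SE 0.096, adjusted p = 0.999). The direct pathway list (8 of 11 higher, median 0.099) and the indirect pathway list (6 of 10 tested genes higher, median 0.032) also had 0 members called by edgeR. With the cortical marker level as a covariate Pdyn was called higher (adjusted p = 0.0325).

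Among 15 tested GABAergic interneuron genes 8 were higher and 7 lower, with a median of 0.071 that became -0.031 under limma voom. Elfn1, which was called under the Foxp2 virus, was lower at a log2 fold change of -0.75 over both viruses (SE 0.21, unadjusted p = 0.00194, adjusted p = 0.999), with -0.048 under the control virus and -1.40 under the Foxp2 virus. The highest was Th, the dopamine-synthesising enzyme found in rare striatal interneurons and in dopamine axons, at 1.81 ± 1.54 CPM in control and 4.47 ± 2.31 CPM in BACHD mice (log2 fold change 1.31, SE 0.62, adjusted p = 0.999). In turn, the 9 tested cholinergic interneuron genes had a median of 0.099, with -0.069 under the control virus and 0.45 under the Foxp2 virus. Cortical excitatory neuron genes, which a striatal dissection can include, were split 10 to 10 with a median of -0.014. Their mean level was 3.77 to 6.25 log2 CPM in control mice and 3.62 to 6.16 log2 CPM in BACHD mice, and 2 of the 3 mice lowest in it were BACHD+Con mice. Without these 3 mice Htt and Msantd1 were called as before, and the number of lower genes went from 0 to 4 (Col23a1, Foxf1, Foxp2 and Frmpd1).

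Among glial genes, astrocyte markers were lower more often than higher without a called member. Of 20 astrocyte genes 16 were lower, the median log2 fold change was -0.14, and 20 of 20 intervals lay within a 2-fold change. Slc1a2, the main glutamate transporter of astrocytes, was at 6153 ± 408 CPM in control and 5599 ± 329 CPM in BACHD mice, with 5 BACHD mice below the lowest control mouse (log2 fold change -0.14, SE 0.053, adjusted p = 0.999). Kcnj10, a potassium channel that buffers extracellular potassium, was at 338 ± 101 and 273 ± 36.1 CPM. Its log2 fold change was -0.065 under the control virus and -0.48 under the Foxp2 virus. Gja1, the gap junction protein connexin 43, was at 233 ± 51.8 and 196 ± 25.1 CPM. Gfap, the filament protein that rises in reactive astrocytes, ranged from 221 to 538 CPM in control mice and from 139 to 604 CPM in BACHD mice (95% interval -0.34 to 0.27).

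Microglial genes had a median of -0.14 (11 of 18 lower) and oligodendrocyte genes of -0.040 (12 of 21 lower), with 0 called by edgeR. The oligodendrocyte median was -0.21 under the control virus and 0.17 under the Foxp2 virus. The lowest oligodendrocyte gene was Aspa, the enzyme that breaks down N-acetylaspartate, at 26.0 ± 6.96 and 17.3 ± 7.58 CPM (log2 fold change -0.61, SE 0.22, adjusted p = 0.999). Endothelial and mural cell genes had a median of -0.016 (10 of 17 lower), from -0.11 under the control virus to 0.10 under the Foxp2 virus, with Tagln, an actin-binding protein of smooth muscle, at 5.04 ± 2.31 and 2.10 ± 1.83 CPM (log2 fold change -1.22, adjusted p = 0.999). Choroid plexus and ependyma genes had a median of -0.19 (11 of 15 lower), and their summed level ran from 521 to 10409 CPM over control mice and from 427 to 14116 CPM over BACHD mice. Over the alternatives this median ran from -1.12 under limma voom to 0.066 without Con+Con mouse 1. Of 17 listed lymphocyte and red cell genes, 3 passed the filter on low counts, and 0 of these were called.

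Huntingtin and its protein partners were then examined as a list. Of 25 tested genes 18 were higher, and Htt was the 1 that was called. The median was 0.047. Optn was the lowest. Hip1, a clathrin adaptor named for its binding to huntingtin, was at 82.7 ± 16.3 CPM in control and 101 ± 9.58 CPM in BACHD mice, and all 8 BACHD mice lay above the control median (log2 fold change 0.30, SE 0.11, adjusted p = 0.999). The list of DNA repair genes linked to the onset of Huntington disease had 7 of 15 genes higher, 0 called and a median of -0.010. In the fixed list of Htt neighbours, a narrower set than the 1000 kb window, 9 of 13 tested genes were higher, Msantd1 was called and the median was 0.053.

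Genes of signalling pathways centred on 0. The 32 glutamate and GABA receptor genes had a median of 0.0029 (17 higher), with every 95% interval within a 2-fold change and 0 called. The 35 potassium channel genes had a median of 0.015 (20 higher), also all within a 2-fold change. Kcnj4, an inward rectifier of forebrain neurons, was at 78.1 ± 16.04 and 95.5 ± 14.6 CPM (log2 fold change 0.30, SE 0.12, adjusted p = 0.999). The 34 cyclic nucleotide and G protein signalling genes had a median of 0.044 (20 higher). Their lowest member was Adcy8, a calcium-stimulated adenylyl cyclase, at 26.8 ± 7.54 and 16.9 ± 4.89 CPM with all 8 BACHD mice below the control median (log2 fold change -0.65, SE 0.20, adjusted p = 0.999). The 12 neurotrophin signalling genes were split 6 to 6 with a median of -0.015. Ret, the receptor kinase for the GDNF family, was at 9.71 ± 7.61 and 3.94 ± 2.46 CPM (log2 fold change -1.32, SE 0.51, adjusted p = 0.999).

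Genes induced by neuronal activity had a median of -0.042, with 13 of 24 lower and 0 called by edgeR. The median was 0.016 under the control virus and -0.20 under the Foxp2 virus. The other 11 were higher, up to a log2 fold change of 0.497 for Nr4a2. An unadjusted p under 0.05 was reached by 4 of the 24 (16.7%, beside 3.99% of all tested genes), all lower in BACHD mice. Other lists had similar shares, such as 15.4% of the listed Htt neighbours. It was 13.3% for the GABAergic interneuron genes and for the choroid plexus and ependyma genes. The share thus does not set the activity genes apart. The 4 lower genes were Npas4 and 3 further immediate early genes. Egr2, a zinc-finger transcription factor, was at 13.0 ± 4.19 and 8.09 ± 3.73 CPM. The AP-1 subunit Jun was at 82.1 ± 30.3 and 67.7 ± 30.3 CPM. Dusp1, a phosphatase of MAP kinases, was at 23.2 ± 9.12 and 16.3 ± 5.50 CPM. Their log2 fold changes were -0.69, -0.31 and -0.48, and each adjusted p was 0.999. For Dusp1 it was -0.082 under the control virus and -0.87 under the Foxp2 virus.

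Of the developmental regulators that Polycomb silences in neurons, 13 of 38 listed genes passed the filter on low counts, and 11 of these 13 were lower. Their median of -0.29 was the lowest of the 30 lists. It was -0.71 under the control virus and -0.26 under the Foxp2 virus, and 3 of the 13 had an interval within a 2-fold change. Foxf1 and Pax7 were highest in the Con+Foxp2 mice, and a gene that passed the filter only through 1 group had to differ there. The Polycomb complex subunits themselves had a median of 0.0025 (13 of 24 higher, 0 called). Beta protocadherins, clustered adhesion molecules of neurons, had the highest median of the 30 lists at 0.13 (15 of 21 higher, 0 called), with 0.27 under the control virus and 0.011 under the Foxp2 virus.

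The pathways of cell upkeep often studied in Huntington disease had medians close to that of all genes. Respiratory chain and ATP synthase genes had a median of -0.0098 (22 of 43 lower), and all 43 intervals lay within a 2-fold change. Cox4i1, a subunit of cytochrome c oxidase, was at 298 ± 10.9 CPM in Con+Con, 289 ± 8.62 in Con+Foxp2, 289 ± 20.4 in BACHD+Con and 216 ± 14.8 in BACHD+Foxp2, so that the last group was the low one (log2 fold change over both viruses -0.23, SE 0.075, adjusted p = 0.999). Under the Foxp2 virus its log2 fold change was -0.42 by edgeR (SE 0.093, adjusted p = 0.162), and DESeq2 called it lower there. Ppargc1a, the coactivator of mitochondrial genes known as PGC-1alpha, was at 116 ± 18.7 and 100.2 ± 11.0 CPM (log2 fold change -0.21, SE 0.10, adjusted p = 0.999). Heat shock proteins and chaperones had a median of -0.026 (18 of 32 lower), with Hspa5, the chaperone BiP of the endoplasmic reticulum, at 293 ± 33.6 and 260 ± 22.7 CPM. Proteasome and ubiquitin genes had a median of 0.012 (17 of 32 higher), autophagy genes of -0.015 (13 of 23 lower) and cholesterol synthesis and transport genes of 0.036 (13 of 23 higher). Outside cell upkeep, interferon response genes had a median of -0.23 (11 of 14 tested genes lower, of 22 listed), further from that of all genes. Antigen presentation genes had one of 0.064 (7 of 10 higher). None of these lists had a member called by edgeR.

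Over all 30 lists, 594 of 664 listed genes were tested, Htt and Msantd1 were called by edgeR, and 38 genes (6.40%) had an unadjusted p under 0.05, beside 3.99% of all tested genes. The lists were chosen with earlier results of these data known, so the higher share is no separate result about them. DESeq2 also called Actn2 and Foxf1 lower, and limma voom Foxf1. Medians ran from -0.29 to 0.13, and 23 lists had a median within 0.1 of 0. For 510 of the 594 genes (85.9%) the 95% interval lay within a 2-fold change.

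**Figure D5:**
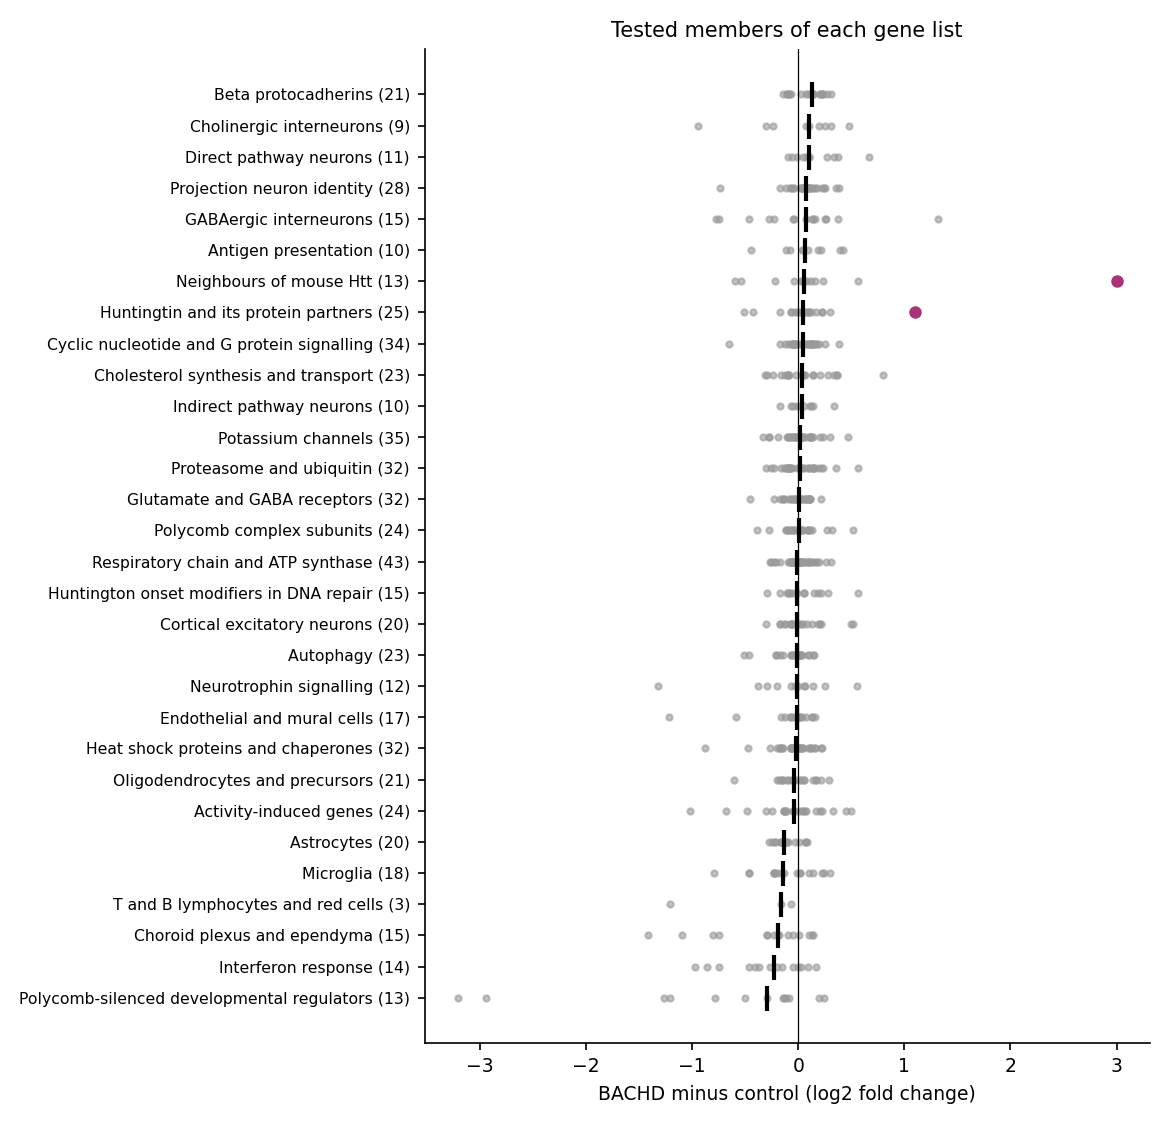
Log2 fold change of BACHD against control mice over both viruses (horizontal axis) for the tested members of the 30 gene lists, 1 point per gene, with the number of tested members in brackets and a vertical bar at the median of the list. The 2 filled points that stand apart at the right are Htt and Msantd1, the called members.

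For the control virus arm the authors' deposited table gives their own comparison of BACHD+Con with Con+Con. An adjusted p under 0.05 was given to 3 genes in the authors' deposited table, all higher in BACHD mice. These were Htt (log2 fold change 0.89, adjusted p = 2.25e-09), Msantd1 (1.21, adjusted p = 1.68e-10) and Lars2 (0.51, adjusted p = 0.0381) in the authors' deposited table. By edgeR on the counts, the log2 fold changes under the control virus were 1.085 for Htt and 3.46 for Msantd1. The authors' values come from a different fit, and whether they were drawn toward 0 was not examined, so the sizes are not directly comparable. Lars2 encodes the mitochondrial leucyl-tRNA synthetase. In the counts it was at 152 ± 9.80 CPM in Con+Con and 230.4 ± 27.2 CPM in BACHD+Con, and at 194 ± 13.5 and 208 ± 33.4 CPM under the Foxp2 virus. By edgeR its log2 fold change over both viruses was 0.34 (SE 0.098, adjusted p = 0.984), and DESeq2 on the counts called it under the control virus.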

How the data were processed

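Total RNA of mouse striatum was extracted with an RNeasy Lipid Tissue kit and made into SMARTer libraries for Illumina HiSeq 2000, per the labels' protocols. The authors deposited whole-number read counts per gene symbol, not normalized, for 16 mice, and the tools named in the submitters' processing notes are STAR 2.4.0, HTSeq and DESeq2, with mm10 as the build. The sources used here do not state the use of strand. Lines for unassigned reads (75.3% to 77.5% of the listed reads) were left out. The authors also deposited a table of log2 fold changes and adjusted p-values for BACHD+Con against Con+Con, which were read only to set beside the values here.

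The counts entered edgeR 4.0.16 (quasi-likelihood test, R 4.3.3) after TMM scaling and filterByExpr, in a model of virus plus genotype with 13 residual degrees of freedom. Effects within each virus and the interaction came from a fit with a mean per group. Tests were two-sided, with Benjamini-Hochberg adjustment across 13563 genes and calls under 0.05. CPM are mean ± SD. The exact permutation test used log2 CPM with a prior count of 2. In simulated data 200 genes, none of them of low level, were changed by genotype, and no gene had a virus effect. There, 30 of 100 genes changed 1.5-fold and 72 of 100 changed 2-fold were recovered, with 5 false among 107 calls over 13329 genes. Benjamini-Hochberg adjustment is more lenient with 107 calls than with the 2 of the real comparison, so these shares do not carry over to it.

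Alternatives were other scalings, filters and models, DESeq2 1.42.0, voom in limma 3.58.1, a replicate block, each virus alone, cortical marker level, and leaving out each mouse. Genes named were a striatal panel of 13 genes (Htt, Foxp1, Foxp2, Gfap, Scn4b, Pde10a, Ppp1r1b, Drd1, Adora2a, Drd2, Penk, Pdyn and Tac1), the called genes averaging at least 1 log2 CPM, then the genes of lowest p up to 6 per direction, and up to 3 members of lowest p in each of 30 lists. Names of the Gm and Rik kind were skipped. Cdh4, Dusp1, Htra3, Lars2, Mdk, Arl2bp, Tcf7l2, Cdc42bpg, Rgs12 and any other gene outside this rule were picked with their values known. The comparison and the lists were chosen with earlier results of these data known. Of 24421 symbols, 23376 matched GENCODE M21, which gave the coordinates (GRCm38, counted from 1), and sequences came from that genome and the RefSeq promoter table. Some genes are not reported here.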

Additional observations from a re-analysis of the deposited data

Results flagged for a closer look

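For 54 genes in 4 groups, the gap from the highest or lowest mouse to the next was divided by the range of the group. A share above 0.829 marked a mouse as standing apart, and this arose 8 times over 216 combinations of gene and group. The Pax7 groups with 0 reads in every mouse had no range and could not be tested. Chance marks about 1 group in 20. Optn in BACHD+Foxp2 mouse 4 was lowest at 21.4 CPM, with the others at 32.0 to 32.2. Jun was lowest in BACHD+Foxp2 mouse 1 at 78.3 CPM, with the others at 97.6 to 99.8. Adcy8 was highest in BACHD+Foxp2 mouse 2 at 22.6 CPM, with the others at 12.4 to 13.4. In Con+Foxp2 mouse 2, Elfn1 was highest at 106 CPM (others 56.7 to 61.0), Tcf7l2 was highest at 140 CPM (others 26.5 to 40.6) and Rgs12 was lowest at 17.7 CPM (others 38.6 to 42.4). In BACHD+Con, Arl2bp was lowest in mouse 4 at 60.9 CPM (others 81.1 to 83.2) and Ppargc1a was highest in mouse 1 at 109.6 CPM (others 92.3 to 95.2).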

How the results depend on the processing

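Htt was called under all 29 alternatives and Msantd1 under 28. Msantd1 was lost with the Foxp2 virus samples fitted alone (log2 fold change 2.58, adjusted p = 0.104), where 1 gene was higher and 10 lower. The number of lower genes rose from 0 to 8 with no low count filter, 4 with DESeq2, 4 with limma voom, 3 with the contrast averaged over a mean per group, 4 without the 3 mice lowest in cortical markers and 5 with the cortical marker level as a covariate. Leaving out 1 mouse at a time gave 0 to 3, with Actn2, Foxf1 and Frmpd1 called without Con+Con mouse 3, Col23a1, Foxf1 and Frmpd1 without BACHD+Con mouse 2, 2 genes including Frmpd1 without Con+Con mouse 2, and Col23a1 alone without Con+Con mouse 1, Con+Con mouse 4 or BACHD+Con mouse 4. Under the control virus 2 genes became 1 with limma voom, with the replicate block and without the 3 mice lowest in cortical markers, and 1 to 2 with a mouse left out. Under the Foxp2 virus 8 became 15 with DESeq2, 13 with the cortical covariate and 4 to 10 with a mouse left out. The interaction went from 0 to 3 with no filter, 4 with DESeq2, 2 with the cortical covariate and 0 to 1 with a mouse left out. The cause of these changes was not tested.

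Replicate numbers did not pair the mice. Over 24 same-numbered pairs the correlation of deviations ran from -0.168 to 0.102 (median -0.0094), and 1 of 16 libraries correlated best with its own number. With the replicate block 2 genes were higher and 0 lower, as without it.

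Some differences changed sign. Adora2a (0.0069, and 0.14 at most with a mouse left out) was -0.038 with no virus term, -0.29 under the control virus alone, and -0.12 to -0.0075 on leaving out 1 of Con+Con mice 1 (-0.062) and 3 (-0.082), Con+Foxp2 mice 2 (-0.060), 3 (-0.042) and 4 (-0.0075), BACHD+Con mouse 2 (-0.047) and BACHD+Foxp2 mice 1 (-0.016) and 4 (-0.12). Gfap (-0.035) was 0.051 with no virus term, 0.23 under the Foxp2 virus alone, 0.020 without the 3 mice lowest in cortical markers, and positive without Con+Con mouse 1 (0.00607) or 4 (0.00357), BACHD+Con mouse 3 (0.053) or 4 (0.025) or BACHD+Foxp2 mouse 2 (0.025). Under the control virus alone, Rgs12 was -0.16, Foxp2 0.013 (from -0.70), Drd1 -0.042, Ppp1r1b -0.0099 and Cdh4 0.10 (from -0.72). Under the Foxp2 virus alone, Pde10a was 0.016 and Scn4b 0.20. Foxp1 was -0.0031 without the 3 mice lowest in cortical markers. Without Con+Con mouse 2, Drd2 was 9.3e-05, Pde10a 0.022 and Scn4b 0.00090, and without Con+Con mouse 4 Scn4b was 0.0087. With a mouse left out, the lowest values were -0.14 for Drd2, -0.15 for Pde10a and -0.16 for Scn4b. Depth limits genes of few reads, such as Msantd1 in control mice (82 reads over 8 mice).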
